A study of Mus musculus with 9 samples.

Results

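RNA of 8 hepatic transcription factors was followed on 13 probe sets of Affymetrix mouse arrays: Hnf4a (4 probe sets), Foxa1, Foxa2, Foxa3, Cebpa and Nr2f1 (1 each), and Cebpb and Onecut1 (2 each). The members are all probe sets that the array's annotation assigns to 1 of these genes alone, 13 of 22626 probe sets and 8 of 12393 genes. The rule uses no measured value, but the genes were chosen with earlier results of these data known. The cells were MLP29, a single line of mouse hepatic progenitor cells, starved in 0.1% fetal bovine serum for at least 16 h before treatment, and all 9 arrays share this background. Untreated cells, cells given 20 ng/ml of the scatter factor HGF/SF1, and cells given 10 µg/ml of an antibody that blocks the function of α5β1 integrin (clone BMB5), both for 24 h, have 3 arrays each. Every condition has 1 array in each of 3 experiments, numbered 1, 2 and 3 here. The array titles set these apart by a number that reads like a date, and the labels do not say what it marks. None of the labels names a control antibody. The paper lists an IgG antibody among its control treatments but calls the control cells of the arrays untreated. On these arrays the addition of any antibody and the functional blockade of the integrin therefore cannot be told apart.

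The liver identity of a cell rests on a small network of transcription factors that bind one another's promoters and those of secreted and metabolic genes. HNF4α, an orphan nuclear receptor encoded by Hnf4a, is its hub, and FOXA proteins open chromatin at liver enhancers ahead of other factors. C/EBPα is known to hold hepatocytes in a differentiated, non-dividing state, while C/EBPβ is the member of that family induced in regeneration and in the acute-phase response. HNF6, encoded by Onecut1, acts in biliary and hepatocyte development, and COUP-TFI, encoded by Nr2f1, is an orphan nuclear receptor that can compete with HNF4α for its sites.

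Promoter sequences are shown for Hnf4a and Cebpb, whose levels ran in opposite directions over the 9 arrays, and for Foxa1, the member with the smallest p after the antibody in the fit of a mean per condition (with the experiment as a block, that of Cebpb was smaller). They are the 250 bases before a transcript start, taken from RefSeq for build GRCm38.p6 and written 5′ to 3′ on the gene's strand. The capitals mark matches to the motifs searched, which are those of liver factors and nuclear receptors, the CRE half-site and TATAAA. Hnf4a has 2 such windows. The one printed, at chr2:163506607-163506856 on the plus strand, precedes a transcript start near the upstream end of the gene. It overlaps the annotated gene, which begins at 163506811, by its last bases. It holds a forkhead match (TGTTTNC) 238 bases before the start and a ONECUT match (ATCAAT) 59 bases before it. The other window, at chr2:163546905-163547154, holds no match to any motif searched and is not printed. The Foxa1 window, at chr12:57546112-57546361 on the minus strand, lies within the annotated gene before an internal transcript start and holds 1 forkhead match, on the opposite strand, 141 bases from the start. The Cebpb window, at chr2:167688665-167688914 on the plus strand, holds 3 matches to the CRE half-site (TGACG), 180, 53 and 7 bases from the start. All of its capitals are these, and it holds no match to the other motifs searched.
Hnf4a: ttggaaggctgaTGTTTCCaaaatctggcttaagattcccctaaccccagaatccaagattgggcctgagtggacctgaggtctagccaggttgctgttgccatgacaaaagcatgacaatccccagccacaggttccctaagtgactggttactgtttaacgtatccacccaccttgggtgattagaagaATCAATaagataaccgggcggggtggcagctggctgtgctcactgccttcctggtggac
Foxa1: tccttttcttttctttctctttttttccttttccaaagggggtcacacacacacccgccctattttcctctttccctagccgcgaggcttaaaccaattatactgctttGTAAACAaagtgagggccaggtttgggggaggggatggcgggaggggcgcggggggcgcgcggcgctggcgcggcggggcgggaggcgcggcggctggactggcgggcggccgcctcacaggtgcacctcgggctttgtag
Cebpb: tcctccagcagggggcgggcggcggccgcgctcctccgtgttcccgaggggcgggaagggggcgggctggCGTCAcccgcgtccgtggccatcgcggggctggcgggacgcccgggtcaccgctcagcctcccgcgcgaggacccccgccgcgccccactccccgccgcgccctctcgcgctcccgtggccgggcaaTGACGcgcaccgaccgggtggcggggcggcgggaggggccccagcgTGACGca
These motifs are short and common. Of 32851 windows of the same length, 17.8% hold the forkhead letters on either strand, 6.72% the ONECUT letters and 17.8% the CRE half-site. The motifs HNF4 (CAAAGTCCA, 0.384% of windows), nuclear receptor half-site (AGGTCA, 14.0%) and C/EBP (TTGCNNAA, 9.56%) were also searched on both strands, and TATAAA (7.59%) on the given strand. No capital marks any of these in the 3 windows printed. A match is a stretch of letters and was not tested as a binding site.

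All levels are log2 signals. Probes differ in brightness, so differences are given only within a probe set, and a rank among probe sets says how bright its signal was, not how much RNA there was. By rank among all 22626 probe sets, Cebpb (94% dimmer), Hnf4a (85.5% at its brightest probe set) and Foxa2 (80.5%) were bright, and Foxa1 (63.1%) and Cebpa (49.8%) were near the middle. Nr2f1 (43.4%), Foxa3 (28.9%) and both Onecut1 probe sets (27% and 11.6%) were dim, and at such levels background signal makes up more of the value. Array medians lay between 5.91 and 6.08, and the log2 3′ to 5′ difference of Gapdh lay between -0.318 and -0.0618. That of Actb varied more, from 0.197 to 0.873. In experiment 2 it was 0.873 in untreated cells and 0.372 after the antibody, and its part in the differences was not tested.

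The probe sets of epithelial keratins of liver progenitors were bright, and those of most hepatocyte products were dim. The keratins Krt8, Krt18 and Krt19 were brighter than 99.4% or more of the probe sets. Of 11 measured progenitor and biliary markers, 6 were above the median level of all probe sets, and Epcam, a surface marker of such progenitors, was dim (32.7%). Of 38 measured hepatocyte genes, 1 was above that median and 22 were in the lowest quartile of levels, and Alb (26%) and Afp (29%), the albumin and fetal albumin genes, were dim on every array. The hepatic factors were therefore read in cells where most of the hepatocyte genes they are known to activate gave a dim signal.

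After the antibody, Foxa1 and Nr2f1 were called lower and Foxa3 and Cebpb called higher than in untreated cells, and Hnf4a was lower in all 3 experiments on all 4 probe sets. Of the 13 probe sets, 10 moved the same way in 3 of 3 experiments, against 36.8% of all probe sets. In the fit of a mean per condition (limma), 4 of the 13 probe sets had an unadjusted p under 0.05, which is what is meant by called. This is 30.8% of the members against 11.8% of all probe sets, of which 4.53% were higher and 7.29% lower. By gene, taking the brightest probe set, 4 of 8 members were called against 12.6% of all genes. None of the 13 passed Benjamini-Hochberg adjustment over all probe sets, a threshold passed by 5 of 22626 (0.0221%). The experiments themselves differed in level, and when the experiment was added to the limma fit as a block, 10 of 13 probe sets were called against 18.2% of all (3 higher and 7 lower, against 8.05% and 10.1%). With the block as a random effect, at an estimated correlation of 0.249, 6 of 13 were called (2 higher and 4 lower) against 16.3% of all, and 5 of 8 genes against 17.2%. Those called with the fixed block were all 4 of Hnf4a, Foxa1, Foxa3, Cebpa, both of Cebpb, and Nr2f1, while Foxa2 and Onecut1 were not. Again none passed the adjusted threshold, which 24 probe sets (0.106%) did. Probe sets of 1 gene read the same transcripts, and by gene the count with the block was 6 of 8, against 18.5% of all genes. The median size of the log2 difference, in either direction, was 0.61 over the members and 0.14 over all probe sets. As these are bulk cultures, a lower level in each cell cannot be told apart from fewer cells that express the gene.

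**Figure D1:**
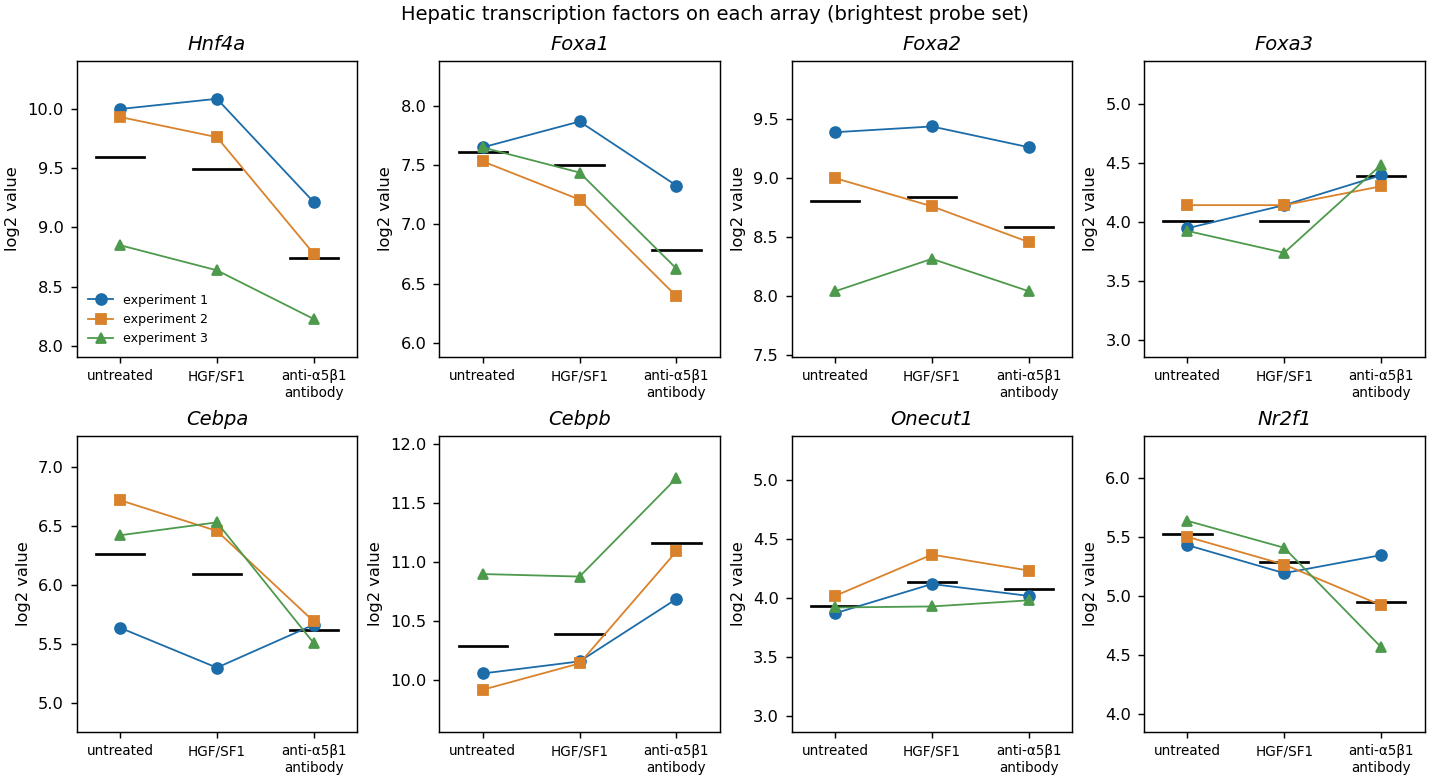
Log2 level (vertical axis, 1 panel per member at its brightest probe set, every panel spanning the same number of log2 units) on the 9 arrays, grouped by condition, with 1 marker shape per experiment. The antibody arrays of Foxa1 and Nr2f1 all lie below the untreated ones, those of Foxa3 all lie above, and in Hnf4a, Foxa2 and Cebpb the experiments lie apart within each condition.

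The Hnf4a gene lies on chromosome 2 (163506811 to 163572907). Its brightest probe set (1427001_s_at) read log2 levels of 10.00, 9.93 and 8.85 in untreated cells of experiments 1, 2 and 3, and 9.22, 8.78 and 8.23 after the antibody. Every antibody array was below the untreated array of its own experiment, but the groups overlapped, because experiment 3 was low in every condition. The log2 difference was -0.86 (SE 0.45, 95% interval -1.89 to 0.18), with differences of -0.79, -1.16 and -0.62 within the experiments. It was not called without the block (limma adjusted p = 0.529). It was called with the block (SE 0.14, interval -1.18 to -0.53, limma adjusted p = 0.0680).

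The 3 dimmer probe sets of Hnf4a gave differences of similar size. The probe set 1421983_s_at read 8.44, 7.93 and 7.37 in untreated cells and 7.57, 6.90 and 7.11 after the antibody (log2 difference -0.72, interval with the block -1.16 to -0.29). The probe set 1427000_at read 7.35, 7.71 and 6.40 against 6.66, 6.63 and 6.35 (log2 difference -0.61, interval with the block -1.08 to -0.14). The probe set 1450447_at read 7.70, 6.41 and 6.58 against 6.69, 5.84 and 6.34 (log2 difference -0.60, interval with the block -0.98 to -0.22). In each of these 3 the difference was smallest in experiment 3, whose untreated array was the lowest or next to lowest of its group. All 4 were called with the fixed block and none without it. With the block as a random effect, 1427001_s_at and 1421983_s_at were called, and 1427000_at and 1450447_at were not (limma adjusted p = 0.355 and 0.414). Without the block, the brightest probe set was called once the untreated array of experiment 3 (log2 difference -1.23), its HGF/SF1 array (-0.86) or the whole of experiment 3 (-0.97) was left out.

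Foxa1, the forkhead pioneer factor expressed from early endoderm on, lies on chromosome 12 (57540628 to 57548029). Its log2 levels were 7.65, 7.53 and 7.65 in untreated cells and 7.33, 6.39 and 6.63 after the antibody. The untreated arrays lay close together (SD 0.07), and all antibody arrays were below them. The log2 difference was -0.83 (SE 0.25, interval -1.40 to -0.26), a level 1.78-fold lower, with differences of -0.32, -1.14 and -1.02 within the experiments (limma adjusted p = 0.257). The call held when any 1 array was left out. It was lost without the whole of experiment 2 (log2 difference -0.67) or 3 (-0.73). Without the antibody array of experiment 1, where the difference was smallest, Foxa1 passed the adjusted threshold (log2 difference -1.10, limma adjusted p = 0.0246), as it did without the whole of experiment 1 (limma adjusted p = 0.0370).

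Neither of the other FOXA genes was called lower. Foxa2, which shares targets with Foxa1 and acts with it in hepatic specification, lies on chromosome 2 (148042877 to 148046969). Its log2 levels were 9.38, 8.996 and 8.04 in untreated cells and 9.26, 8.46 and 8.04 after the antibody. The order of the experiments was the same in both groups, and the groups overlapped almost entirely. The log2 difference of -0.22 (interval -1.23 to 0.78, limma adjusted p = 0.913) was not called with the block either, where its interval was -0.53 to 0.08. Its sign turned without the untreated array of experiment 1 (0.07) or the antibody array of experiment 3 (0.05).

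Foxa3, abundant in adult hepatocytes, lies on chromosome 7 (19013283 to 19023539) and was dim. It read log2 levels of 3.95, 4.14 and 3.92 in untreated cells and 4.40, 4.30 and 4.48 after the antibody, and the antibody arrays were all above the untreated ones. The log2 difference was 0.39 (SE 0.13, interval 0.08 to 0.70, limma adjusted p = 0.318), with differences of 0.45, 0.16 and 0.56 within the experiments. The call was lost without the untreated array of experiment 1 (log2 difference 0.36) or 3 (0.35), the antibody array of experiment 3 (0.34), experiment 1 (0.36) or experiment 3 (0.30).

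**Figure D2:**
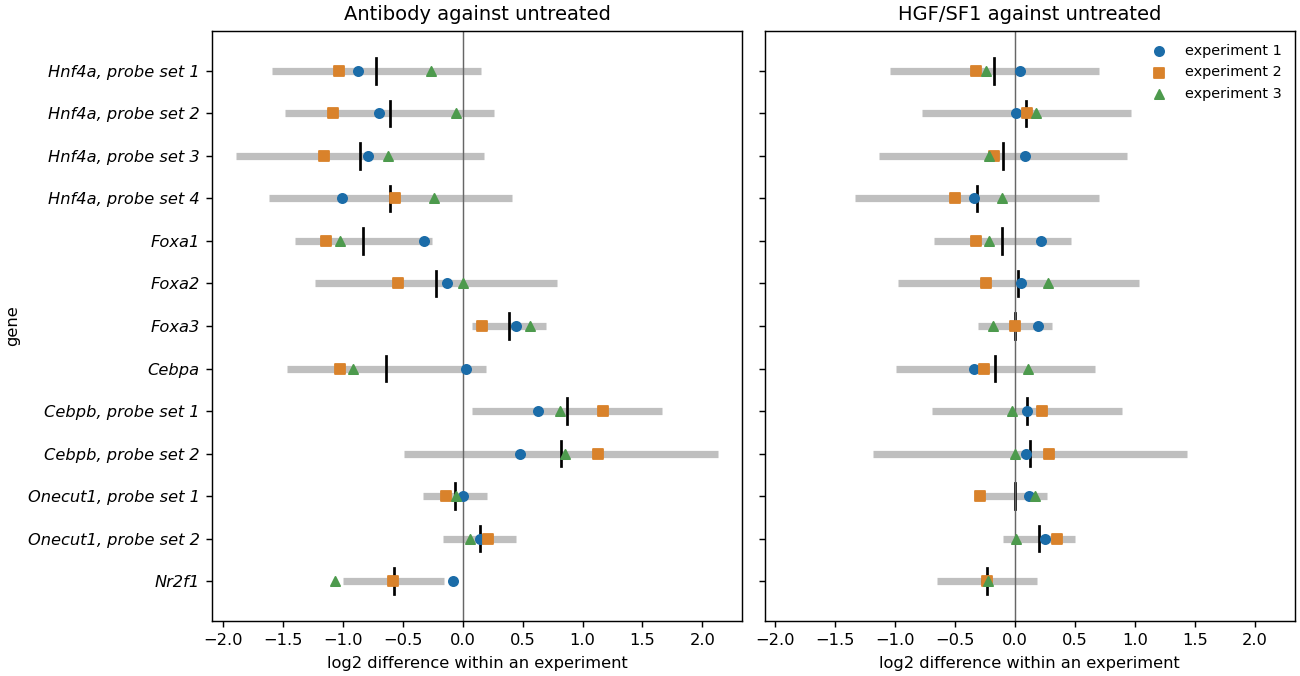
Log2 difference between antibody and untreated cells, and between HGF/SF1 and untreated cells (horizontal axis), for the 13 probe sets, with probe set 3 of Hnf4a, 1 of Cebpb and 2 of Onecut1 the brightest of their genes. The grey bar is the 95% interval of the limma fit without the block, the black tick is the mean, and markers are the differences within experiments 1, 2 and 3. After the antibody every experiment lies below 0 in all 4 Hnf4a probe sets and above 0 in both Cebpb probe sets, and after HGF/SF1 the means lie between -0.32 and 0.20.

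Cebpb was called higher, and Cebpa was called lower only with the fixed block. Cebpb, the inducible member, lies on chromosome 2 (167688915 to 167690432). Its brighter probe set (1418901_at) read log2 levels of 10.06, 9.92 and 10.90 in untreated cells and 10.69, 11.09 and 11.71 after the antibody. All antibody arrays were above the untreated arrays of their experiments, and the groups overlapped through the high untreated array of experiment 3. The log2 difference was 0.87 (SE 0.35, interval 0.08 to 1.66), a level 1.83-fold higher, with differences of 0.63, 1.17 and 0.81 within the experiments (limma adjusted p = 0.377). With the block the SE was 0.12 (interval 0.58 to 1.17, limma adjusted p = 0.0662). The second probe set (1427844_a_at) read 9.03, 8.96 and 10.43 in untreated cells and 9.51, 10.09 and 11.28 after the antibody (log2 difference 0.82), and was called only with the fixed block (interval 0.49 to 1.15), not with the block as a random effect (limma adjusted p = 0.373). The mean of both probe sets was not called without the block (log2 difference 0.85).

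Without the block, the call of the brighter Cebpb probe set depended on many single arrays. It was lost without the untreated array of experiment 1 (log2 difference 0.75) or 2 (0.68), the antibody array of experiment 2 (0.91) or 3 (0.597), and the whole of experiment 1 (0.99) or 2 (0.72).

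Cebpa, which opposes proliferation in hepatocytes, lies on chromosome 7 (35119293 to 35121928). Its log2 levels were 5.64, 6.72 and 6.42 in untreated cells and 5.66, 5.69 and 5.51 after the antibody. The antibody arrays were alike (SD 0.10), and the untreated array of experiment 1 was already at their level, so the difference was 0.03 in experiment 1 against -1.02 and -0.91 in the others. The mean log2 difference of -0.64 (SE 0.36, interval -1.47 to 0.20) was not called without the block (limma adjusted p = 0.568) and was called with it (interval -1.25 to -0.02, limma adjusted p = 0.259). With the block as a random effect it was not called (limma adjusted p = 0.345). Without the block it was called when the untreated array of experiment 1 (log2 difference -0.95) or its HGF/SF1 array (-0.64) was left out. Without the whole of experiment 1 it was -0.97 and passed the adjusted threshold (limma adjusted p = 0.0473).

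Nr2f1 lies on chromosome 13 (78188971 to 78198873). It read log2 levels of 5.43, 5.50 and 5.63 in untreated cells and 5.34, 4.92 and 4.57 after the antibody. All antibody arrays were below all untreated arrays, and the differences spread from -0.08 in experiment 1 to -0.58 and -1.07 in experiments 2 and 3. The mean log2 difference was -0.58 (SE 0.18, interval -0.996 to -0.16, limma adjusted p = 0.275), a level 1.49-fold lower. The call was lost without experiment 2 (log2 difference -0.58) or 3 (-0.33), and without the antibody array of experiment 1 the log2 difference was -0.78 and passed the adjusted threshold (limma adjusted p = 0.0276). In all, 3 of the 13 probe sets, those of Foxa1, Foxa3 and Nr2f1, had groups that did not overlap, against 14.2% of all probe sets.

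Onecut1, on chromosome 9 (74861921 to 74889648), was among the dimmest members and its probe sets differed in direction. The brighter one (1450252_at) read 3.87, 4.02 and 3.92 in untreated cells and 4.02, 4.23 and 3.98 after the antibody (log2 difference 0.14, interval -0.16 to 0.44). The dimmer one (1421447_at) read 3.52, 3.58 and 3.52 against 3.52, 3.44 and 3.46 (log2 difference -0.07, interval -0.33 to 0.20). Neither was called with or without the block, and the probe sets give no direction for this gene.

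HGF/SF1, which also scatters these cells, left no called difference in the hepatic factors, and few on the array as a whole. Of the 13 probe sets, 0 were called against untreated cells, with or without the block, beside 0.849% of all probe sets (192) without it and 1.82% with it. By gene the count was 0 of 8, beside 0.839% and 1.66% of all genes. At such low shares, a count of 0 among so few probe sets does not set the members apart from the rest of the array. Of the 13 probe sets, 4 moved the same way in 3 of 3 experiments, against 21.9% of all. No probe set of the array passed the adjusted threshold. The arrays are few, so the intervals stay wide for the genes that vary between experiments. For Hnf4a the log2 levels after HGF/SF1 were 10.09, 9.76 and 8.64 (log2 difference -0.10, interval -1.13 to 0.93), and for Cebpb they were 10.16, 10.14 and 10.88 (log2 difference 0.10, interval -0.69 to 0.90). For Foxa1 they were 7.87, 7.21 and 7.44 (log2 difference -0.11, interval -0.68 to 0.47). Without the block, the intervals of Hnf4a and Cebpb include the differences seen after the antibody, while that of Foxa1 ends short of it. With the block the intervals narrowed to -0.43 to 0.23 for Hnf4a, -0.19 to 0.40 for Cebpb and -0.49 to 0.28 for Foxa1, and none of these includes the difference seen after the antibody.

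Intervals were narrower for Foxa3 and Onecut1, but both are dim, and at such levels background signal makes up more of the value. Foxa3 read 4.14, 4.14 and 3.74 after HGF/SF1 (log2 difference 0.00, interval -0.30 to 0.31), and the brighter Onecut1 probe set read 4.12, 4.37 and 3.93 (log2 difference 0.20, interval -0.10 to 0.50). The intervals of Foxa2 and Cebpa were wide. Foxa2 read 9.43, 8.76 and 8.31 (log2 difference 0.03, interval -0.98 to 1.03) and Cebpa 5.30, 6.46 and 6.53 (log2 difference -0.16, interval -0.995 to 0.67). Nr2f1 stood somewhat apart. It read 5.19, 5.26 and 5.41 after HGF/SF1, below its own untreated array by 0.24, 0.23 and 0.23 in the 3 experiments, and its groups did not overlap, which 3.69% of all probe sets showed. The mean log2 difference of -0.23 (SE 0.18, interval -0.65 to 0.19) was not called with or without the block.

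Set directly against HGF/SF1, the antibody arrays gave lower Foxa1 and higher Foxa3. This comparison shares its antibody arrays with the one above. Foxa1 was lower by a log2 difference of -0.72 (limma adjusted p = 0.267) and Foxa3 was higher by 0.38 (limma adjusted p = 0.273). These 2 of 13 (15.4%) were the calls, 1 higher and 1 lower. The share was near that of all probe sets, 13.2% (5.2% higher and 7.96% lower). By gene they were 2 of 8, beside 14.1%. Only Foxa3, 1 of 13, had groups that did not overlap, which 13.8% of all probe sets showed. Of the members, 9 of 13 moved the same way in 3 of 3 experiments, against 34.8%. The Foxa1 call was lost without the antibody array of experiment 2 (log2 difference -0.53) or 3 (-0.65), the HGF/SF1 array of experiment 1 (-0.54), or the whole of experiment 2 or 3 (both -0.68). That of Foxa3 was lost without the antibody array (0.34) or the HGF/SF1 array (0.25) of experiment 3, or the whole of experiment 1 (0.45) or 3 (0.21). With the block 7 of 13 were called (3 higher and 4 lower), beside 19.8% of all (9.1% and 10.7%), and 4 of 8 genes beside 20.3%. As a random effect the block gave 5 of 13 beside 17.9%, and 4 of 8 genes beside 18.9%. Cebpb was higher by 0.77 (within experiments 0.53, 0.95 and 0.83) and passed the adjusted threshold with the fixed block (limma adjusted p = 0.0491), as did 1.07% of all probe sets. It was the only member to do so, it no longer passed with the block as a random effect (limma adjusted p = 0.159), and without the block it was not called (interval -0.03 to 1.56). Hnf4a differed by -0.76 (within experiments -0.87, -0.99 and -0.41), and was called only with the block (limma adjusted p = 0.0536).

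The members differed in whether their spread lay between experiments or between conditions. Of the sum of squares of Foxa2 over the 9 arrays, 91.4% lay between experiments and 4.56% between conditions. Only 1.03% of all probe sets had as large a share between experiments. The 4 Hnf4a probe sets had 53.9% to 74.8% between experiments and 18.5% to 34.6% between conditions. The brighter Cebpb probe set was split nearly evenly (48.2% and 48.5%). Foxa1 (26.3% and 63.3%), Foxa3 (7.83% and 66.1%) and Nr2f1 (2.76% and 59.2%) had most of their spread between conditions. The medians over all probe sets were 32.8% and 23.4%, and 9 of the 13 members exceeded the first. For the genes with large shares between experiments, what set the experiments apart was not tested.

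**Figure D3:**
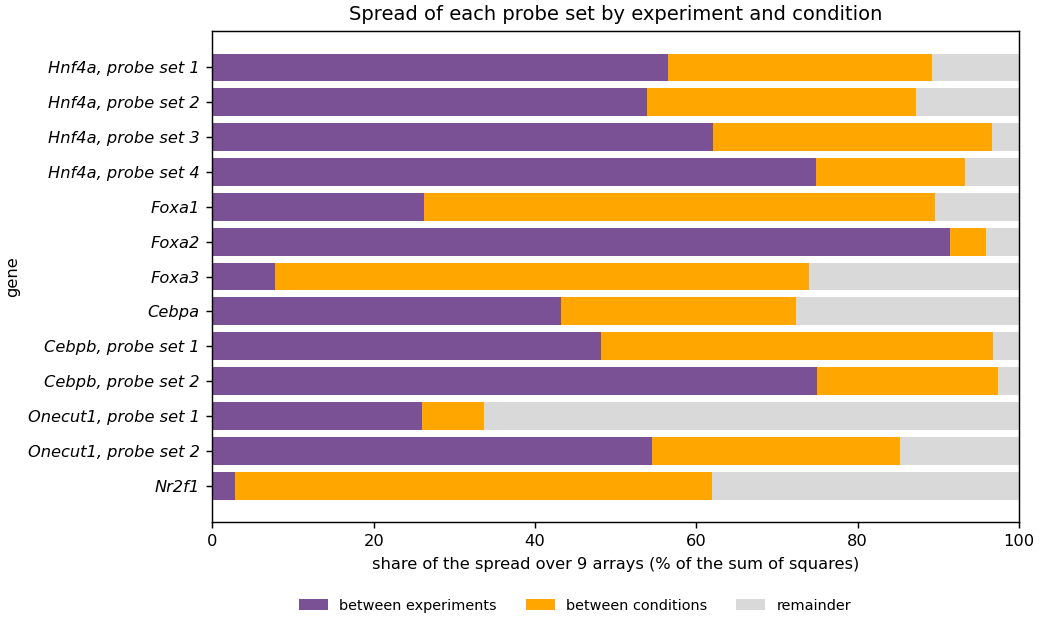
Stacked bars of the sum of squares over the 9 arrays (horizontal axis, percent) for each member probe set, split into the part between experiments, the part between conditions and the remainder. The bar of Foxa2 is 91.4% between experiments, while the part between conditions is 59.2% to 66.1% in Foxa1, Foxa3 and Nr2f1.

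At the brightest probe sets, experiment 3 was the lowest in Hnf4a and Foxa2 and the highest in Cebpb in every condition. The dimmer probe sets of Hnf4a did not all follow, and the mean of 1450447_at was lowest in experiment 2 (7.25, 6.05 and 6.47). Averaged over conditions, the brightest probe sets of Foxa2 had log2 levels of 9.36, 8.74 and 8.13 in experiments 1, 2 and 3, Hnf4a 9.77, 9.49 and 8.57, and Cebpb 10.30, 10.38 and 11.16. Over the 9 arrays the log2 levels of Cebpb and Hnf4a had a Pearson r of -0.96, and of -0.95 after the mean of each experiment was taken from its arrays. Foxa2 and Hnf4a had r of 0.86 (0.77 within experiments). Foxa1 and Cebpb had r of -0.69 over all arrays and of -0.96 within experiments, and Foxa1 and Hnf4a 0.64 and 0.92. Nr2f1 and Cebpa had r of 0.59 and 0.92. These are descriptions over 9 arrays, which share 3 experiments and 3 treatments.

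**Figure D4:**
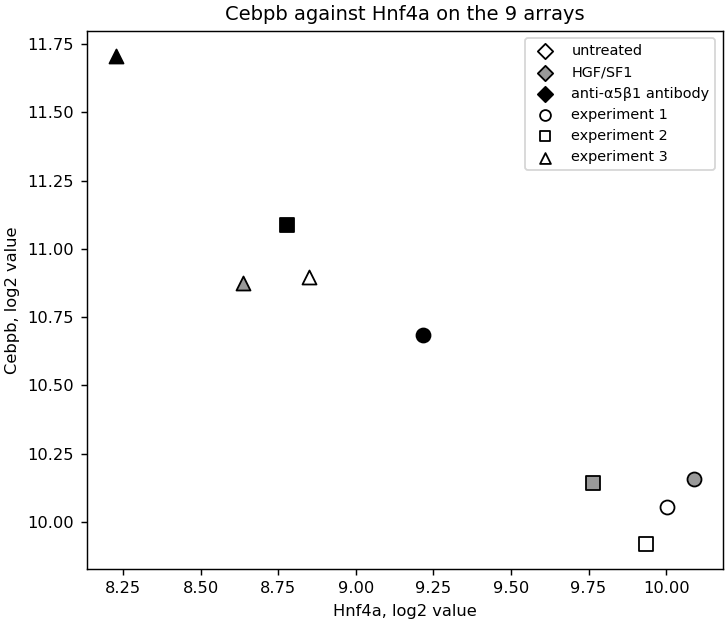
Log2 level of Cebpb (vertical axis) against that of Hnf4a (horizontal axis) on the 9 arrays, each at its brightest probe set, with fill for condition and marker shape for experiment. The untreated array of experiment 3 lies with high Cebpb (10.90) and low Hnf4a (8.85), close to the antibody arrays of experiments 1 and 2.

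The cytokine gene Il6 and the acute-phase genes Lcn2 and Saa3 were high in the untreated cells of experiment 3. Il6, the cytokine through which C/EBPβ is classically induced in liver, read log2 levels of 3.95, 4.98 and 7.37 in untreated cells and 7.49, 9.41 and 7.70 after the antibody (log2 difference 2.77, SE 0.86, limma adjusted p = 0.271). The untreated array of experiment 3 was close to the antibody array of that experiment, and the differences within experiments were 3.54, 4.43 and 0.32. The call was lost without the whole of experiment 1 or 2, with log2 differences from 1.93 to 3.99 over all arrays and experiments left out. Lcn2 and Saa3, an iron-trapping protein and an acute-phase protein made outside the liver as well, were singled out after their values were seen. Lcn2 read 4.21, 6.35 and 10.40 in untreated cells and 8.20, 10.45 and 11.37 after the antibody, and Saa3 read 5.11, 5.91 and 9.60 against 6.34, 8.66 and 9.17. Neither was called without the block, and Lcn2 was called with the fixed block (log2 difference 3.02, interval 1.47 to 4.57, limma adjusted p = 0.0896), not with the random one (limma adjusted p = 0.322). The share of the sum of squares between experiments was 63.6% for Lcn2, 79.4% for Saa3 and 17.5% for Il6. Of the 19 measured acute-phase genes, 13 exceeded the median share of all probe sets (32.8%), and Hp (8.25%), Cfb (12.9%) and Hpx (14.8%) were among the 6 that did not. The share carries no direction. Saa1 and Serpina3n, both dim, were among the 13 and read lower in untreated cells of experiment 3 than of experiment 1. The part of Il6 and the acute-phase genes in the differences of Cebpb and Hnf4a between experiments was not tested.

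Other genes of the network were read from lists of known members, counted at the brightest probe set beside 580 of 12393 genes called higher and 982 called lower after the antibody (with the block 968 and 1320). Of 30 other liver transcription factors, 1 was called higher and 5 lower (with the block 4 and 5), with a median log2 difference of -0.026 against -0.0018 over all genes. Those with the smallest p were Xbp1, Nr1h3 and Dbp. Xbp1, a factor of the unfolded protein response, read 11.30, 11.42 and 11.41 in untreated cells and 11.003, 10.84 and 11.01 after the antibody, with groups that did not overlap (log2 difference -0.42, SE 0.11, limma adjusted p = 0.211). Nr1h3, the sterol sensor LXRα, read 6.27, 6.47 and 6.35 against 5.96, 5.46 and 5.66 (log2 difference -0.67, SE 0.17, limma adjusted p = 0.212). Dbp, a clock-driven activator of liver genes, read 6.98, 7.11 and 6.12 against 7.46, 9.87 and 9.38, a log2 difference of 2.17 (SE 0.60, limma adjusted p = 0.227) that was 0.48 in experiment 1. The other 3 called lower were Atf5, Hes1 and Hhex, named to complete the count, with log2 differences of -0.95, -0.83 and -0.67. The call of Xbp1 held without any 1 array or experiment. Those of Nr1h3 and Dbp held without any 1 array and were lost without experiment 2 (Nr1h3) or 3 (Dbp), while Atf5, Hes1 and Hhex kept theirs in 7, 6 and 4 of the 9 fits without 1 array. Cebpd, the remaining inducible C/EBP gene, differed by 0.17 after the antibody and by 0.44 after HGF/SF1, and neither was called.

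Genes known as targets of the network were rarely called. Of the 38 hepatocyte genes, 0 were called in either direction after the antibody, with or without the block, beside 1562 of 12393 genes without it. The genes with the smallest p were Cps1, Mttp and Alb, with log2 differences of 0.19, -0.21 and -0.23. After HGF/SF1 the smallest p was that of Otc, a urea cycle enzyme (log2 difference 0.22, not called). With 22 of the 38 in the lowest quartile of levels, a further fall was hardly detectable. Of 19 acute-phase genes, 0 were called higher and 1 lower (with the block 1 and 2). The 1 lower was Hpx, encoding the heme carrier hemopexin (log2 difference -0.36, limma adjusted p = 0.343), which kept its call in 6 of the 9 fits without 1 array. Hp and Cfb, next in order, differed by -0.24 and -0.48 and were not called. After HGF/SF1 Hpx differed by -0.22 and was not called. Of the 19, 0 were called after HGF/SF1 without the block. With it, 1 was called lower, beside 82 of 12393 genes.

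Regulators and partner genes were called at a share near the 12.6% of all genes. Of 14 regulators of C/EBP proteins, Il6 and Rb1 were called higher and 0 lower, with or without the block. Rb1, the retinoblastoma protein gene, read 6.94, 7.499 and 7.25 in untreated cells and 7.43, 8.81 and 8.55 after the antibody (log2 difference 1.04, SE 0.32, limma adjusted p = 0.272), and its call held without any 1 array and was lost without experiment 2 or 3. Socs3, a feedback inhibitor of IL-6 signalling, differed by 0.43 and was not called, and Trib1, whose product targets C/EBP proteins for degradation, differed by -0.35 after HGF/SF1 and was not called either. Of 15 nuclear receptor cofactors, 1 was called higher and 1 lower (with the block 3 and 1). Ncoa5 read 7.02, 7.30 and 7.37 in untreated cells and 6.45, 5.90 and 5.83 after the antibody, a log2 difference of -1.17 (limma adjusted p = 0.135) whose call held without any 1 array or experiment. Ncoa6 was higher by 0.45 (limma adjusted p = 0.325), a call kept in 7 of the 9 fits without 1 array. Smarcd1 after the antibody (log2 difference -0.54) and Ppargc1b after HGF/SF1 (-0.26) were not called. No gene of these lists passed the adjusted threshold after the antibody, and none was called after HGF/SF1 without the block, where 104 of 12393 genes were called.

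Markers of cells that could share the culture were also counted. Of 12 macrophage markers, Cd68 alone was called after the antibody. It read 5.12, 5.202 and 6.17 in untreated cells and 6.66, 8.15 and 9.47 after the antibody (log2 difference 2.595, limma adjusted p = 0.207), and the call was lost without experiment 2. The mean log2 level over the 12 was 4.96 to 5.02 in untreated cells, 5.04 to 5.10 after HGF/SF1 and 5.14 to 5.24 after the antibody. Without Cd68 these ranges were 4.85 to 5.00, 4.91 to 5.04 and 4.85 to 5.00, and the median log2 difference of the 12 after the antibody was 0.031. The defining markers Ptprc, Adgre1 and Csf1r were dim on all arrays (brighter than 3.71%, 31.3% and 44.4% of probe sets) and uncalled. Cd14, the endotoxin co-receptor, was bright (97.8%), 1 of 2 markers above the median level, and differed by -0.54 after the antibody without being called. Lyz2 was dim (33.8%) and was called after neither treatment (log2 differences 0.19 and 0.21). Of 10 endothelial and 12 stellate or mesenchymal markers, 0 were called after the antibody, with or without the block. The endothelial genes with the smallest p were Emcn, Pecam1 and Stab2 (log2 differences 0.25, -0.21 and -0.14), and the mesenchymal ones were Vim, Col1a2 and Dcn (0.13, -0.18 and -0.09). After HGF/SF1 Emcn differed by 0.22 and was not called, and Col3a1, a dim collagen probe set, differed by 0.29 and was called only with the block. Of 11 progenitor and biliary markers, 0 were called without the block and 1 with it. This was Sox9, a factor of biliary progenitors, which read 4.86, 4.83 and 5.76 in untreated cells and 5.03, 5.99 and 6.44 after the antibody (log2 difference 0.67, interval with the block 0.13 to 1.21), and it was not called with the block as a random effect (limma adjusted p = 0.314). Krt19 and Krt8 differed by -0.31 and -0.15, and Krt19 after HGF/SF1 by -0.19, and none of these was called. The part of Cd68 and Sox9 in the differences of the hepatic factors was not tested.

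Genes that followed the 3 members with the smallest p without the block were sought among 6722 or 6723 genes brighter than the median. Closest to Foxa1 over the 9 arrays were Tirap, an adaptor of Toll-like receptors, Hexim1, an inhibitor of transcription elongation, and Snx4, a sorting nexin (Pearson r of 0.99, 0.98 and 0.98). Closest to Nr2f1 were Ubxn2a, Slc30a6 and Zmym1 (r of 0.97, 0.96 and 0.96), and closest to Foxa3 were Dync1i2, the aryl hydrocarbon receptor gene Ahr, and Asrgl1 (r of 0.93, 0.92 and 0.91). These values describe 9 arrays that share treatments and experiments.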

How the data were processed

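Samples were assigned to conditions from the agent named in their labels and to experiments from their titles. The authors ran all scanner files through affylmGUI, using the rma method for background, and deposited 1 log2 signal for each probe set. The normalization between arrays is not given in the sources used here, and the values were used as deposited. Of 22690 probe sets, 64 were controls and were dropped. The rest were named through the platform annotation (20380 name 1 gene, 691 several and 1555 none), and 20351 were matched by gene ID to symbols of GRCm38.p6. A gene takes its brightest probe set.

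Condition means were estimated with limma 3.58.1 (R 4.3.3) over all probe sets and arrays, with eBayes (6 residual degrees of freedom, prior 2.39) and two-sided tests, and p-values were adjusted by Benjamini-Hochberg over 22626 probe sets. The script was tested on simulated data with independent arrays and no difference between experiments, so that test does not cover the shared experiments of these arrays. Nothing says that the 3 experiments used separate cell stocks, so p-values measure the spread between these arrays. The number of arrays limits the precision.

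The titles of the arrays of an experiment share a number that reads like a date, and the arrays were paired by it. With condition means subtracted, arrays of the same experiment correlated with r from 0.0958 to 0.591 and those of another experiment and condition with r from -0.484 to 0.0308. For the members after the antibody against untreated cells, values with the experiment as a block are given where they change a call. For the other comparisons and the gene lists, some changed calls are given only as counts.

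The members and gene lists were chosen with earlier results of these data known. Named genes are all members, the 3 genes of each list with the smallest p after the antibody and the 1 after HGF/SF1, and the 3 genes most like each of 3 members. Further list genes were named after their values were seen, to complete or qualify a count or to give defining markers (Lcn2, Saa3, Saa1, Serpina3n, Atf5, Hes1, Hhex, Krt18, Epcam, Afp, Ptprc, Adgre1 and Csf1r). Alternatives were the experiment as a fixed or random block, scaling, a filter on dim probe sets, a variance trend, the samples in the fit, the probe set of a gene, and arrays or experiments left out. Listed genes without a probe set of their own were not analysed here.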

Additional observations from a re-analysis of the deposited data

How the results depend on the processing

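With the experiment as a replicate block, the member probe sets called after the antibody against untreated cells went from 4 to 10, and those called against HGF/SF1 from 2 to 7, of which 1 passed the adjusted threshold. Over all probe sets the block gave 4114, 411 and 4490 calls for the antibody, for HGF/SF1 and between the treatments (2674, 192 and 2978 without it), and 24 and 242 past the adjusted threshold for the first and last (5 and 5 without it). As a random effect, the block gave 6 members called after the antibody and 5 against HGF/SF1, none past the adjusted threshold, 374 calls after HGF/SF1, and 41 and 214 past the adjusted threshold.

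The filter for probe sets above the median level kept 8 of the 13 member probe sets (4 of 8 genes) and dropped those of Foxa3, Cebpa, Onecut1 and Nr2f1. In it 2 members were called after the antibody and 1 against HGF/SF1, with 14 calls after HGF/SF1 and 3 past the adjusted threshold after the antibody. A variance trend gave 3 and 3 past the adjusted threshold in the antibody comparisons, a fit of the compared groups alone gave 0 and 0, and centring gave 13 against HGF/SF1. Foxa3 after HGF/SF1 turned from 0.00 to -0.015 with quantile normalization.

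Leaving out each array or experiment in turn gave 1 to 6 members called after the antibody (1 without experiment 2) and 0 to 4 against HGF/SF1, with 0 to 2 and 0 to 1 past the adjusted threshold. All probe sets called ranged from 912 to 4014 after the antibody, 123 to 366 after HGF/SF1 and 1257 to 4114 between them, with 0 to 1088 and 0 to 1146 past the adjusted threshold in the antibody comparisons. Signs turned in these log2 differences. At the brightest probe sets after HGF/SF1 they were Hnf4a (-0.47 to 0.33), Foxa1 (-0.29 to 0.043), Foxa2 (-0.36 to 0.32), Foxa3 (-0.092 to 0.14), Cebpa (-0.47 to 0.23) and Cebpb (-0.14 to 0.40). After the antibody Foxa2 turned (-0.61 to 0.067), and against HGF/SF1 Foxa2 (-0.59 to 0.049) and Onecut1 (-0.17 to 0.054). Of the dimmer probe sets, all 3 of Hnf4a (-0.54 to 0.13, -0.28 to 0.43 and -0.70 to 0.084), that of Cebpb (-0.29 to 0.60) and that of Onecut1 (-0.086 to 0.14) turned after HGF/SF1. Against HGF/SF1, Hnf4a 1450447_at (-0.62 to 0.10) and Onecut1 1421447_at (-0.19 to 0.018) turned. No sign of a Hnf4a, Foxa1, Foxa3, Cebpa, Cebpb or Nr2f1 probe set turned after the antibody against untreated cells.

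With 3 arrays a condition, differences of the members that vary between experiments have wide intervals, and the dim members lie where background weighs on the signal.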
